A study of Mus musculus with 6 samples.

Results

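The genes described here are Myc, its partner Max, other genes whose proteins pair with Max (the Mxd-family genes Mxd1, Mxi1, Mxd3 and Mxd4, and Mnt and Mga), and the Max-like gene Mlx. They were chosen by gene symbol, and all 9 were found among the 16171 genes of the count table and among the 11480 genes expressed highly enough to be tested. They were measured by RNA sequencing in Raw264.7 cells, a mouse macrophage line transformed by Abelson leukaemia virus, labelled wild type. The surface was titanium coated with calcium phosphate nanowires (THCaP) for 3 libraries and titanium with bare titanate nanowires (TH), the control, for the other 3. Every culture had 12 h to attach, then a 2 h exposure to LPS, the bacterial lipopolysaccharide, at 1 µg/mL and 1 d of further culture, so no group shows the network without LPS. The labels do not say whether libraries of a surface came from separate cultures, and p-values measure only the spread between these libraries.

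Myc is a transcription factor that binds DNA as a pair with Max and recruits coactivators to genes of growth, nucleotide supply and ribosome production. The Mxd proteins and Mnt also pair with Max, bind the same E-box sites and recruit the Sin3 corepressor, so that they oppose Myc. Mlx is a Max-like factor that pairs with the glucose-sensing Mondo proteins and with some Mxd proteins and Mnt, and Mga pairs with Max inside a Polycomb-type repressor complex. In macrophages Myc is known as a gene that changes early after activation, and Mxd1 is known from myeloid differentiation, when Mxd-Max pairs replace Myc-Max pairs.

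Counts are reads per gene as deposited. CPM are counts scaled to a common library size with TMM factors. FPKM are the authors' values per length of gene and library total, used wherever levels of different genes are compared. A log2 fold change is THCaP over TH from an edgeR quasi-likelihood fit over all tested genes, with its standard error (SE). A gene is called when its Benjamini-Hochberg adjusted p, over all tested genes, is under 0.05.

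The E-box is the site that links these factors, and several of them carry one in their own promoter. RefSeq promoter windows (GRCm38.p6, 250 bases before to 50 after the start of a gene) were at hand for 8 of the 9 genes, all but Myc. The palindrome CACGTG, read on both strands, was found in the windows of Max, Mlx, Mnt and Mxd4, which is 4 of 8 genes, against 11.9% of 9230 tested genes with a window. It was not found in the windows of Mxd1, Mxd3, Mxi1 (3 windows) and Mga. The stretches of 30 bases around each site follow, with the E-box in capitals, because they show where a Max-containing pair could bind within the network itself. The site of Max lies at chr12:76962234-76962263 (minus strand), that of Mlx at chr11:101087238-101087267 (plus strand), that of Mnt at chr11:74830789-74830818 (plus strand) and that of Mxd4 at chr5:34187912-34187941 (minus strand).
Max: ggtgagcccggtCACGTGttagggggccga
Mlx: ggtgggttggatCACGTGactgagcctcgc
Mnt: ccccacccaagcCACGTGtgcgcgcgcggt
Mxd4: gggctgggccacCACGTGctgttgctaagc
The E-box begins at position −3 from the annotated start in Max, −40 in Mlx, −123 in Mnt and −219 in Mxd4. The related form CACGCG, or CGCGTG on the other strand, was found only in Mga among these 8 genes and in 20.4% of tested genes. In Mga it stands in the stretch at chr2:119897195-119897224 (plus strand).
Mga: agctggtaggagCGCGTGcgcagtgacgtg
An E2F-type motif (TTCCCGC or TTGGCGC, both strands) was present in 14.3% of tested genes and, of the 8, only in Mxd3, at chr13:55329850-55329879 (minus strand), shown because Mxd3 is the Mxd gene linked to proliferating cells.
Mxd3: agttcagcctggGCGGGAAgaggcgggctg
A match in letters describes the sequence and not binding.

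The members were chosen with differences between these surfaces already known, so their values are a description and no test is read from them. Myc, the activator, and Mxd1, which opposes it, were both more than 2-fold lower on THCaP than on TH. Mxi1 and Mnt were lower by less, and the others differed by at most 0.28 on the log2 scale in either direction. In the fit over all genes 4 of the 9 were called, all lower (Myc, Mxd1, Mxi1 and Mnt), where 23.6% of tested genes were called, 12.0% as lower. THCaP and TH libraries were fully separated in 5 of the 9, as in 43.4% of tested genes. Nothing is read from these counts, since the choice of genes used them.

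Myc itself had 140, 93 and 212 counts in THCaP replicates 1, 2 and 3, against 431, 350 and 340 counts in TH replicates 1, 2 and 3. Per length this was 2.08, 1.32 and 3.07 FPKM on THCaP, against 5.93, 5.17 and 4.95 FPKM on TH. Every THCaP library lay below every TH library, and THCaP replicate 2 was lowest and replicate 3 nearest to TH. The mean was 5.08 ± 2.06 CPM on THCaP and 13.1 ± 1.18 CPM on TH (SD, n = 3 each), 2.57-fold lower on THCaP (log2 fold change −1.36, SE 0.25). In bulk RNA fewer cells with a transcript and less of it per cell cannot be told apart. Of the 11480 tested genes, 63 had a log2 fold change as low as or lower than that of Myc. The THCaP libraries also differed more among themselves, with an SD of 40.8% of the mean FPKM on THCaP and 9.58% on TH. Myc lies at chr15:61985391-61990374 (GRCm38, plus strand), and no other annotated gene overlaps it.

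**Figure D1:**
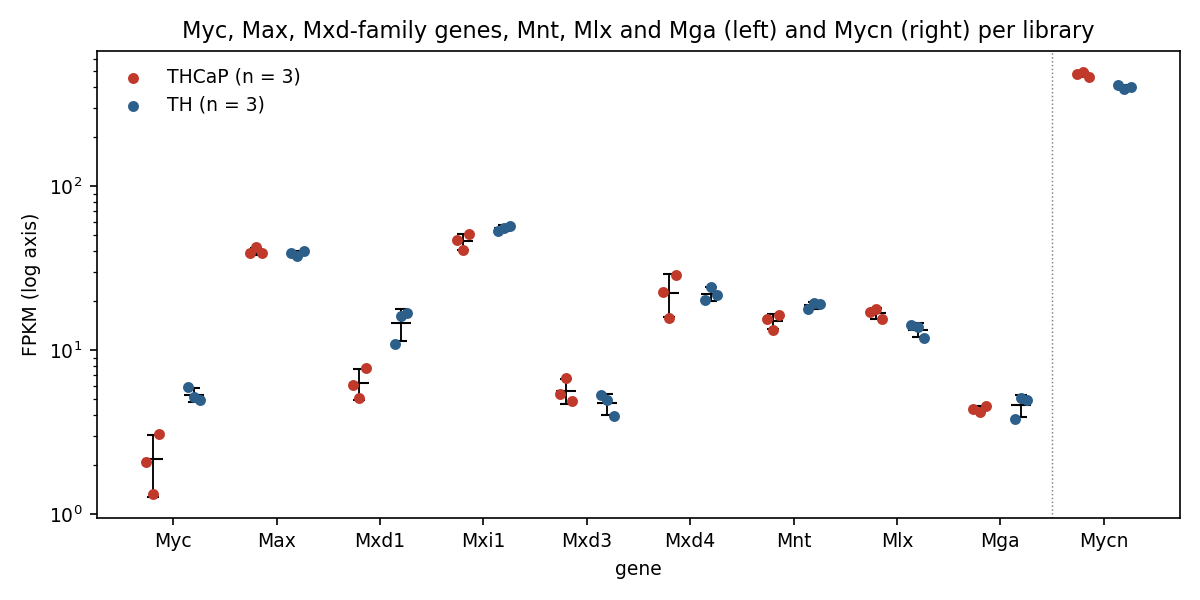
FPKM (log axis) of the 9 network genes and, right of the dotted line, Mycn in each library; coloured points are THCaP (left) and TH (right) libraries, black bars the mean ± SD of 3. Myc and Mxd1 lie lower in every THCaP library than in any TH library, Max lies at the same level on both surfaces, and Mycn stands at 389 to 497 FPKM.

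Max, the partner that Myc, Mxd, Mnt and Mga proteins all need, was level. It had 38.9, 42.4 and 39.2 FPKM on THCaP, against 39.3, 37.4 and 40.2 FPKM on TH. The THCaP and TH libraries were interleaved, and the log2 fold change was −0.01 (SE 0.08). An absolute log2 fold change as small as that of Max or smaller was found in 288 of the 11480 tested genes.

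Among the Max-binding repressors, Mxd1 differed most. It had 6.11, 5.08 and 7.78 FPKM on THCaP, against 10.9, 16.0 and 16.8 FPKM on TH. All THCaP libraries were lower, and among TH libraries replicate 1 stood below the other two. The mean was 28.9 ± 6.19 CPM on THCaP and 69.3 ± 15.7 CPM on TH (SD, n = 3 each), 2.39-fold lower on THCaP (log2 fold change −1.26, SE 0.19), and 87 tested genes were as low or lower in log2 fold change. Mxd1 lies at chr6:86647042-86669161 (minus strand), where the annotation also has the unverified gene model Gm44292 on the same strand.

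Mxi1, an Mxd-family repressor and the most abundant of these transcripts here, had 46.6, 40.7 and 50.9 FPKM on THCaP, against 53.2, 55.7 and 57.5 FPKM on TH. The surfaces did not overlap, and the log2 fold change was −0.32 (SE 0.09). Mnt, the broadly expressed Max partner that represses through Sin3, had 15.5, 13.2 and 16.4 FPKM on THCaP, against 17.8, 19.5 and 19.0 FPKM on TH (log2 fold change −0.37, SE 0.09). For these 2 genes too the lowest library was THCaP replicate 2 and the THCaP library nearest to TH was replicate 3. Under scaling by library totals Mxi1 was no longer among the called genes, nor with FPKM values, and without THCaP replicate 1, TH replicate 2 or TH replicate 3 only Myc and Mxd1 were called. Without THCaP replicate 2 Myc, Mxd1 and Mnt were called.

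The remaining Mxd genes showed no separation of the surfaces. Mxd4 had 22.6, 15.8 and 28.8 FPKM on THCaP, against 20.1, 24.2 and 21.6 FPKM on TH, so that THCaP held both the lowest and the highest library (log2 fold change −0.03, SE 0.19). Its log2 fold change ran from −0.25 to 0.17 when single libraries were left out. Mxd3, an Mxd gene expressed in dividing cells, had 5.39, 6.72 and 4.87 FPKM on THCaP, against 5.29, 4.95 and 3.95 FPKM on TH (log2 fold change 0.21, SE 0.17). Its counts were few, from 147 to 257 per library. On the other strand Mxd3 overlaps Prelid1, which had 9384 to 11606 counts per library, and the strand setting of the counting is not given in the sources used here. Annotated genes also overlap Mxi1 (Gm10197 and AC133451.2) and Mxd4 (Gm42846) on the other strand, and Max (Gm47218) on the same strand. The part of overlapping genes in these counts was not tested.

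Mlx had 17.0, 17.8 and 15.4 FPKM on THCaP, against 14.3, 13.8 and 11.9 FPKM on TH. Every THCaP library was higher than every TH library, by 0.28 on the log2 scale (SE 0.10), without a call in the fit over all genes. It was among the called genes with library totals, with FPKM values and without THCaP replicate 3. Mlx overlaps Psmc3ip on the other strand, a recombination factor with 323, 444 and 243 counts on THCaP, against 177, 196 and 199 counts on TH (higher by 0.78 on the log2 scale, SE 0.20, edgeR adjusted p = 0.0261). The part of Psmc3ip reads in the Mlx difference was not tested.

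Mga, the giant scaffold of a Polycomb-type complex, had 4.40, 4.20 and 4.53 FPKM on THCaP, against 3.79, 5.09 and 4.97 FPKM on TH. The THCaP libraries lay inside the TH range, and the log2 fold change was −0.13 (SE 0.11). Without TH replicate 1, the TH library with the lowest Mga, the log2 fold change was −0.26 and Mga was called lower.

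**Figure D2:**
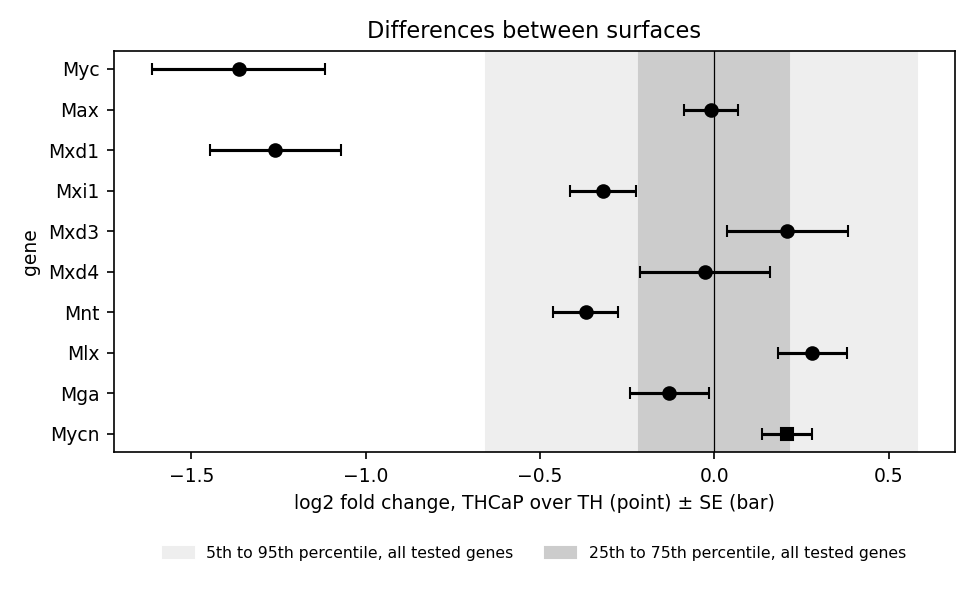
Log2 fold change of THCaP over TH (points) with SE (bars) for the 9 network genes and Mycn (square), over bands from the lower to the upper quartile and from the 5th to the 95th percentile of all tested genes. Myc (−1.36) and Mxd1 (−1.26) lie left of the wider band and Max (−0.01) in the middle.

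Ordered by level on THCaP, the genes ran Mxi1, Max, Mxd4, Mlx, Mnt, Mxd1, Mxd3, Mga and Myc, with mean FPKM from 46.1 ± 5.12 for Mxi1 to 2.16 ± 0.88 for Myc (SD, n = 3). On TH the order was Mxi1, Max, Mxd4, Mnt, Mxd1, Mlx, Myc, Mxd3 and Mga, from 55.5 ± 2.13 FPKM for Mxi1 to 4.62 ± 0.718 FPKM for Mga. The place of Mga depends on the gene length behind its FPKM, 25954 bases, against 2399 for Myc. By mean FPKM Mga ranked 8022 and Myc 8385 of 16171 genes, but by mean CPM 2018 and 9049. Neighbours whose libraries overlapped on THCaP were Mxi1 and Max, Mxd4 and Mlx, Mlx and Mnt, and Mxd1 and Mxd3. On TH they were Mxd1 and Mlx, Myc and Mxd3, and Mxd3 and Mga. Myc was thus last on THCaP, below every library of Mga. On TH the Myc libraries overlapped those of Mxd3 and also those of Mga, so Myc could not be ranked against either.

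Summed over Mxd1, Mxd3, Mxd4, Mxi1 and Mnt, the transcripts of Max-binding repressors came to 96.2, 81.5 and 109 FPKM on THCaP, against 107, 120 and 119 FPKM on TH. THCaP replicate 3 overlapped TH replicate 1. Mxd1 made up 6.34%, 6.24% and 7.15% of this sum on THCaP, against 10.1%, 13.3% and 14.2% on TH, with no overlap. Mxi1 held a similar share in every library, 46.8% to 50.0% on THCaP and 46.3% to 49.6% on TH. Myc amounted to 2.17%, 1.61% and 2.82% of the sum on THCaP, against 5.52%, 4.30% and 4.16% on TH, a difference of −2.46 percentage points between the means. On CPM, which favours long transcripts, the difference was −1.30 percentage points.

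**Figure D3:**
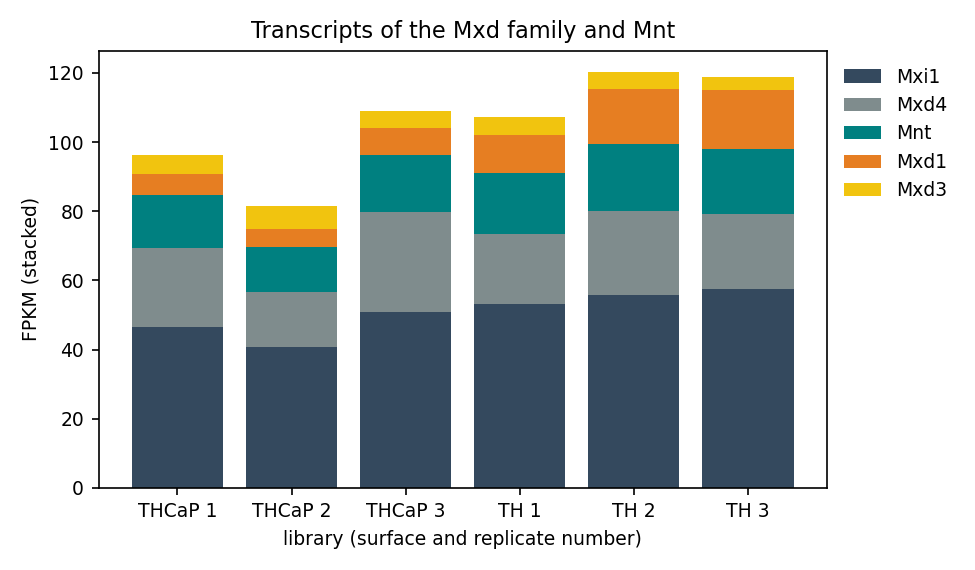
Stacked FPKM of Mxi1, Mxd4, Mnt, Mxd1 and Mxd3 in each library, THCaP replicates 1 to 3 on the left and TH replicates 1 to 3 on the right. The orange Mxd1 segment is 6.24% to 7.15% of the bar on THCaP and 10.1% to 14.2% on TH, and the Mxi1 segment is the largest in all 6 libraries.

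Myc was not the main Myc-type transcript of these cells. Mycn, which encodes the N-Myc paralogue that also pairs with Max, had 480, 497 and 464 FPKM on THCaP, against 414, 389 and 400 FPKM on TH. It ranked 70 of 16171 genes by mean CPM, and Myc ranked 9049. The FPKM of Mycn was 230, 377 and 151 times that of Myc on THCaP and 69.8, 75.3 and 80.9 times on TH. Mycn was named after its values were seen. Its libraries were higher on THCaP without overlap, by 0.21 on the log2 scale (SE 0.07, edgeR adjusted p = 0.0619), so it was not called. Over 15 alternative settings the log2 fold change of Mycn ran from 0.18 to 0.26 and its adjusted p from 0.0254 to 0.207, and it was called in 6, among them library totals (0.0291) and DESeq2 (0.0329). It was called without THCaP replicate 3 (0.0426) or TH replicate 1 (0.0491).

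Because of Mycn, Myc was 0.432%, 0.264% and 0.658% of the summed FPKM of Myc and Mycn on THCaP, against 1.41%, 1.31% and 1.22% on TH. That sum was 5.01, 6.11 and 4.29 times the sum of Mxd genes and Mnt on THCaP, against 3.91, 3.28 and 3.41 times on TH. The ratio was higher in every THCaP library. With Myc alone the ratio went the other way, as given above. Of the other network factors outside the 9 genes, 1 of 3 tested fell and 0 rose, where 12.0% of all tested genes were called lower. Mycl had 4 counts over the THCaP libraries and 7 over the TH libraries, and the Mondo gene Mlxipl had 9 over the THCaP and 6 over the TH libraries, all too few to test. Mlxip, the other Mondo gene, had 126, 112 and 136 CPM on THCaP, against 126, 156 and 150 CPM on TH, and was not called (−0.21, SE 0.11, edgeR adjusted p = 0.169). Zbtb17, which encodes the Miz1 factor through which Myc represses genes, was 1.33-fold lower, with 58.6, 53.2 and 61.0 CPM on THCaP, against 75.6, 76.5 and 78.3 CPM on TH (−0.42, SE 0.08, edgeR adjusted p = 0.00939), a call held in all 15 settings.

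The THCaP libraries differed among themselves in a way that ran through the network. Myc, Mxd1, Mxd4, Mxi1, Mnt and Mga were all highest in THCaP replicate 3, then replicate 1, and lowest in replicate 2. Mlx and Mxd3 had the reverse order, and Max neither. Of all tested genes 32.3% had the first order and 33.5% the reverse. Among genes called lower 73.0% had the first, and among genes called higher 79.1% had the reverse. The means of the 4 lists of Myc-responsive genes, described next, also had the reverse order, highest in THCaP replicate 2. The list of cell cycle genes stood at 0.247, 0.461 and −0.0127 in THCaP replicates 1, 2 and 3, against −0.287, −0.217 and −0.192 in TH replicates 1, 2 and 3, as mean log2 CPM relative to the 6 libraries. The ribosome biogenesis list stood at 0.168, 0.421 and −0.102 in THCaP replicates 1, 2 and 3, against −0.0809, −0.211 and −0.194 in TH replicates 1, 2 and 3, so that THCaP replicate 3 lay below TH replicate 1.

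**Figure D4:**
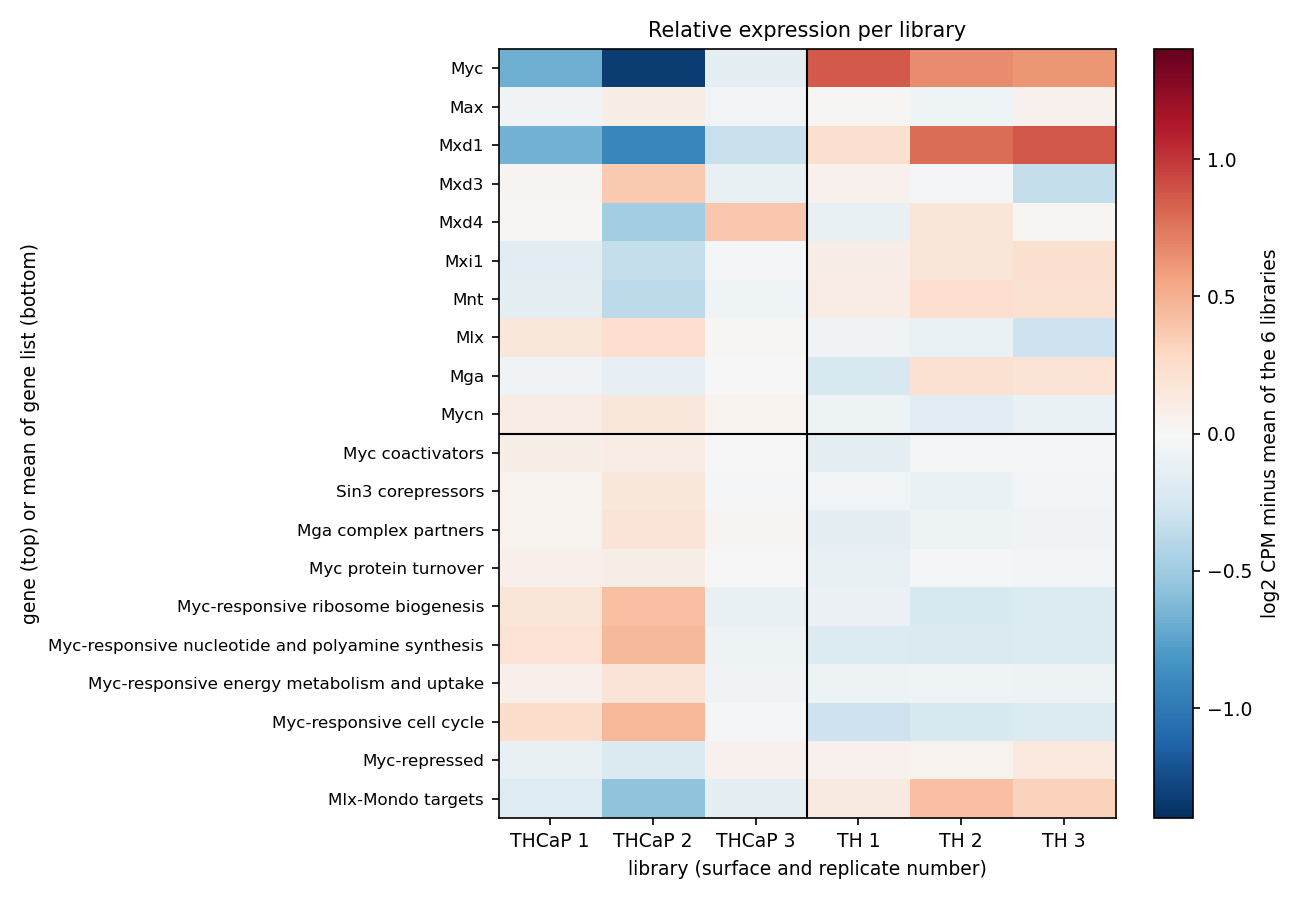
Log2 CPM per library relative to the mean of the 6 libraries, for the 9 network genes and Mycn (top rows) and as means over gene lists (bottom rows), with THCaP libraries left of the line. Myc runs from −1.33 in THCaP replicate 2 to 0.858 in TH replicate 1, while the Myc-responsive cell cycle list runs from 0.461 in THCaP replicate 2 to −0.287 in TH replicate 1.

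Of 113 tested genes known to respond to Myc in many cell types, in 4 lists, 51 rose on THCaP, 4 fell and 58 were not called, where 11.6% of all tested genes were called higher and 12.0% lower. The number called higher was 13, 28 and 78 without THCaP replicates 1, 2 and 3, and 26, 11 and 11 without TH replicates 1, 2 and 3. Their median log2 fold change was 0.34, beside 0.01 for all tested genes. In 61 of the 113 every THCaP library was higher than every TH library, and in 6 every one was lower, against 22.1% and 21.3% of all tested genes. Over all genes 1333 were called higher and 1376 lower, but 1904 and 1063 under scaling by library totals. Like the members, all 12 gene lists were chosen with earlier results of these data known. Their counts, shares and medians, here and below, are therefore a description, and no test is read from them. Many genes of these lists also depend on the cell cycle. Genes of the lists given as not called, Mlxip included, and Cad, were named after their values were seen, as well-known genes of each list. Among those with a promoter window, 12 of 22 genes with the E-box CACGTG rose and 0 fell, and 32 of 74 without it rose and 3 fell. Over all tested genes with the E-box (1094), 12.4% were called higher and 13.0% lower, close to the shares without it (11.9% each). By list, the E-box was in 28.1% of ribosome biogenesis, 27.3% of nucleotide, 20.8% of energy metabolism and 11.1% of cell cycle genes with a window. The E2F-type motif was in 12.5%, 27.3%, 29.2% and 66.7% of them in that order. Of tested genes with a window 11.9% had the E-box and 14.3% the E2F-type motif. The part of either motif in the differences was not tested.

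Of 38 ribosome biogenesis genes 13 rose and 0 fell, with a median of 0.32. Utp20, a processing factor of the small ribosomal subunit, had 71.6, 102 and 53.1 CPM on THCaP, against 37.3, 44.4 and 41.3 CPM on TH (0.88, SE 0.20, edgeR adjusted p = 0.0152). It lost its call without TH replicate 1 or 3 (0.0546 each). Imp4, also of the small subunit, rose by 0.60 (SE 0.13), lost without TH replicate 2 (0.0706) or 3 (0.0651). Grwd1 (0.87, SE 0.26) and Bop1 (0.62, SE 0.17), which act in large subunit assembly, rose, and both lost their calls without THCaP replicate 1 or 2 or TH replicate 2 or 3, with adjusted p from 0.0532 to 0.13. Grwd1 also lost it without TH replicate 1 (0.0611), with DESeq2 (0.0667), with limma-voom (0.0633) and without a filter (0.0684). The abundant nucleolar genes Ncl (0.26, SE 0.11) and Npm1 (0.01, SE 0.07) were not called. The number of genes called higher was 2, 3 and 29 without THCaP replicates 1, 2 and 3, and 7, 1 and 0 without TH replicates 1, 2 and 3, and it was 20 under library totals.

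Of 25 genes of nucleotide and polyamine synthesis 17 rose and 2 fell, with a median of 0.44. Tyms, thymidylate synthase, rose by 1.18 (SE 0.23, edgeR adjusted p = 0.00956), and the purine enzyme gene Pfas had 106, 128 and 78.5 CPM on THCaP, against 57.2, 58.3 and 62.5 CPM on TH (0.81, SE 0.15, edgeR adjusted p = 0.00849). Cad, which starts pyrimidine synthesis and is a textbook Myc target, had 247, 299 and 193 CPM on THCaP, against 147, 169 and 159 CPM on TH (0.64, SE 0.14, edgeR adjusted p = 0.0149). Shmt1, of one-carbon metabolism, rose by 0.77 (SE 0.18), lost without THCaP replicate 1 (0.0535) or TH replicates 1, 2 or 3 (0.0558, 0.0625 and 0.0671). Odc1, the ornithine decarboxylase gene that starts polyamine synthesis and is another textbook Myc target, ran against its list: it had 264, 280 and 254 CPM on THCaP, against 468, 531 and 552 CPM on TH (−0.96, SE 0.09, edgeR adjusted p = 0.000787), a call held in all 15 settings. The other member that fell was Impdh1, an enzyme of guanine nucleotide synthesis (−0.28, SE 0.08), named after its value was seen and lost without any 1 library other than THCaP replicate 3 (adjusted p 0.0571 to 0.157), under library totals (0.0735), with the replicate block (0.0585) and with FPKM values (0.0649 and 0.0653). The number called higher was 2, 12 and 21 without THCaP replicates 1, 2 and 3, and 7, 3 and 3 without TH replicates 1, 2 and 3.

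Of 23 cell cycle genes 16 rose and 1 fell, with a median of 0.58. The replication helicase genes led, among them Mcm2 with 170, 238 and 126 CPM on THCaP, against 91.8, 86.0 and 90.8 CPM on TH (0.99, SE 0.19). Mcm5 (0.98, SE 0.18) and Mcm3 (0.97, SE 0.18) rose as much, and Mcm6 (0.90, SE 0.20) lost its call without TH replicate 2 (0.0564). The D-type cyclin gene Ccnd2, a direct Myc target in textbooks, was the member that fell, with 26.3, 22.4 and 29.2 CPM on THCaP, against 40.6, 50.2 and 51.0 CPM on TH (−0.86, SE 0.12, edgeR adjusted p = 0.00429). It was named after its value was seen. The number called higher was 8, 11 and 18 without THCaP replicates 1, 2 and 3, and 10, 7 and 8 without TH replicates 1, 2 and 3.

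In energy metabolism and nutrient uptake 5 of 27 genes rose (18.5%) and 1 fell (3.7%), with a median of 0.13. The share called, 22.2%, was near the 23.6% of all tested genes, of which 11.6% were called higher and 12.0% lower. Slc7a5, a leucine transporter gene, had 192, 249 and 153 CPM on THCaP, against 126, 128 and 123 CPM on TH (0.66, SE 0.15), lost without TH replicate 2 (0.0585) or 3 (0.0638). Phb, the prohibitin gene (0.57, SE 0.15), lost its call without THCaP replicate 1 (0.0616) or TH replicate 2 (0.0946) or 3 (0.088). The mitochondrial chaperone gene Hspd1 (0.51, SE 0.16) and the transferrin receptor gene Tfrc (0.47, SE 0.15) lost theirs without any 1 library other than THCaP replicate 3 (adjusted p 0.0815 to 0.132) and with limma-voom (0.0588 and 0.0515). The glucose transporter gene Slc2a1, named after its value was seen, was the one that fell (−0.34, SE 0.09), also lost without any 1 library other than THCaP replicate 3 (adjusted p 0.0504 to 0.112). Ldha, the lactate dehydrogenase gene often used as a Myc target, was not called (0.10, SE 0.07, edgeR adjusted p = 0.32). The number called higher was 1, 2 and 10 without THCaP replicates 1, 2 and 3, and 2, 0 and 0 without TH replicates 1, 2 and 3, and it was 8 under library totals or with DESeq2 and 3 with limma-voom.

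Of 11 tested genes known to be repressed by Myc 3 fell (27.3%), 1 rose (9.09%) and 7 were not called, with a median of −0.35, where 12.0% of all tested genes were called lower and 11.6% higher. The cell cycle inhibitor gene Cdkn1a had 144, 145 and 151 CPM on THCaP, against 207, 199 and 193 CPM on TH (−0.45, SE 0.07, edgeR adjusted p = 0.006). Hbp1, a repressor of cell cycle genes, fell by 0.67 (log2, SE 0.14), lost without TH replicate 2 (0.0507). Ndrg1 fell by 0.58 (log2, SE 0.16), lost without THCaP replicate 1 (0.0848) or TH replicate 2 (0.0927) or 3 (0.105). Cdkn2c, another inhibitor of cyclin-dependent kinases, rose, with 54.2, 63.2 and 51.2 CPM on THCaP, against 35.4, 36.4 and 34.4 CPM on TH (0.67, SE 0.10, edgeR adjusted p = 0.00431). The number called lower was 2, 3 and 6 without THCaP replicates 1, 2 and 3, and 3, 1 and 2 without TH replicates 1, 2 and 3.

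**Figure D5:**
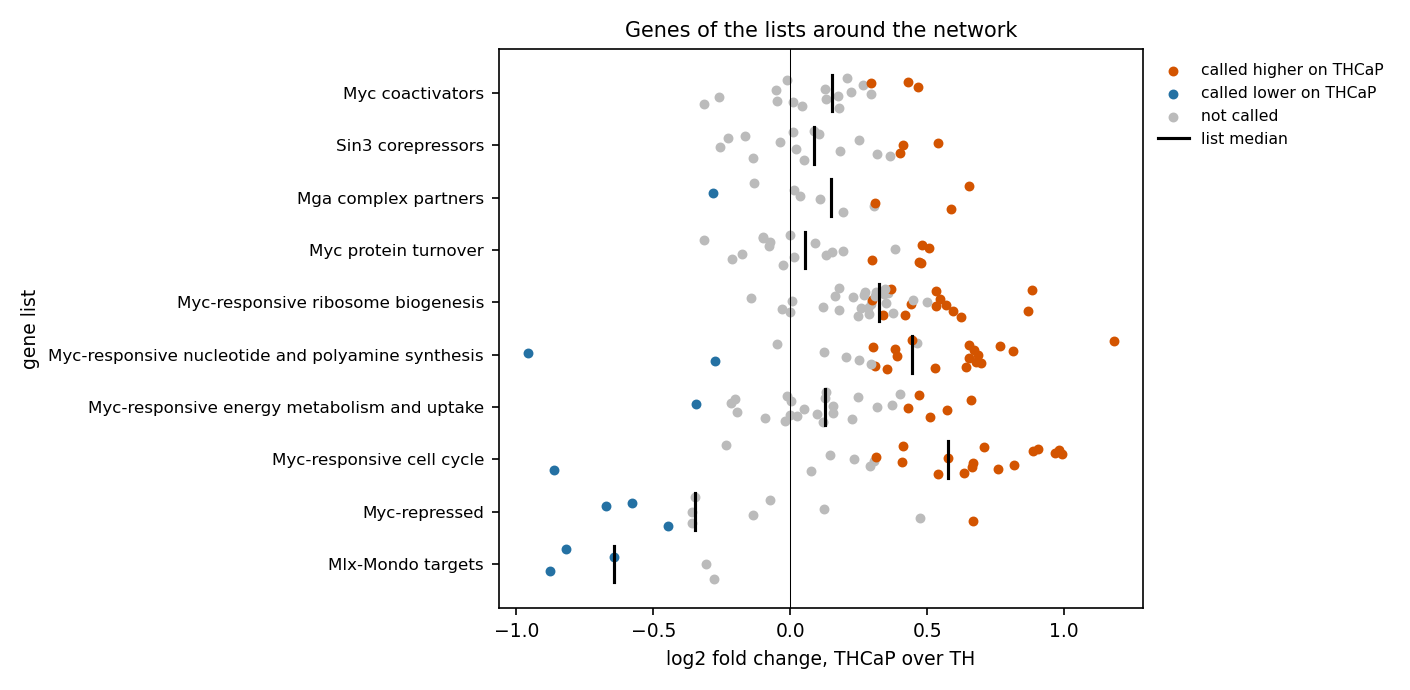
Log2 fold change of THCaP over TH for each tested gene of 10 lists; orange genes were called higher, blue called lower, grey not called, and the black line is the median. The nucleotide (0.44) and cell cycle (0.58) medians lie right of 0, and those of the Myc-repressed (−0.35) and Mlx-Mondo (−0.64) lists left.

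Of 5 tested genes that Mlx and its Mondo partners are known to activate 3 fell, 0 rose and 2 were not called, with a median of −0.64, where 12.0% of all tested genes were called lower. Txnip, which restrains glucose uptake, had 1133, 870 and 1413 CPM on THCaP, against 1453, 2283 and 2297 CPM on TH (−0.82, SE 0.20, edgeR adjusted p = 0.0208). Its relative Arrdc4 had 25.4, 17.7 and 29.6 CPM on THCaP, against 45.8, 44.2 and 43.7 CPM on TH (−0.88, SE 0.16, edgeR adjusted p = 0.00771). Klf10, a gene also induced by TGF-beta, fell by 0.64 (log2, SE 0.15). Txnip and Klf10 lost their calls without THCaP replicate 1 (0.0646 and 0.0575) or TH replicate 2 (0.0777 and 0.0692) or 3 (0.0784 and 0.071), which left 1 gene called in each case.

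Among cofactors of the network 16.7% of the coactivators and 17.6% of the Sin3 corepressors were called, all higher, shares near those of all tested genes (23.6% called, 11.6% as higher). Of 18 coactivator genes of Myc 3 rose and 0 fell (median 0.15), namely Ruvbl1 (0.47, SE 0.13), Smarcb1 (0.43, SE 0.12) and Smarca4 (0.29, SE 0.09). Trrap, the large scaffold that Myc recruits, was not called (−0.01, SE 0.13). Of 17 genes of the Sin3 corepressor 3 rose and 0 fell (median 0.09), namely Rbbp7 (0.54, SE 0.15), Rbbp4 (0.41, SE 0.11) and Hdac1 (0.40, SE 0.11), while the scaffolds Sin3a (−0.17, SE 0.09) and Sin3b (0.10, SE 0.07) were not called. Without THCaP replicate 1, TH replicate 2 or TH replicate 3 none of these 6 genes kept its call (adjusted p 0.0774 to 0.125), and 0 genes of either list were called. Without TH replicate 1 Smarca4 (0.0693), Rbbp7 (0.0744) and Rbbp4 (0.057) lost their calls, with 2 coactivator genes called higher and 2 lower, and 2 corepressor genes higher and 1 lower. Without THCaP replicate 2, 0 coactivator genes and 1 corepressor gene were called, and without THCaP replicate 3, 6 and 6 were called higher and 0 and 1 lower. Under library totals 5 corepressor genes were called higher.

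Of 10 partners of Mga 3 rose and 1 fell (median 0.15), where 11.6% of all tested genes were called higher and 12.0% lower. Tfdp1, the dimer partner of E2F factors, had 196, 247 and 155 CPM on THCaP, against 125, 123 and 133 CPM on TH (0.65, SE 0.14), lost without TH replicate 2 (0.0632). Cbx3, a heterochromatin protein gene, rose by 0.59 (SE 0.11, edgeR adjusted p = 0.00861) and kept its call in all 15 settings. L3mbtl2 (0.31, SE 0.10) and the ubiquitin ligase gene Rnf2 (−0.28, SE 0.09) were called by a small margin (edgeR adjusted p = 0.048 and 0.0474). L3mbtl2 lost its call without any 1 library other than THCaP replicate 3 (0.0765 to 0.183), and Rnf2 without THCaP replicate 1 (0.167) or 2 (0.0867) or TH replicate 2 (0.169) or 3 (0.175), under library totals (0.0822), with limma-voom (0.0521), with the replicate block (0.0559) and with FPKM values (0.0892 each). Of 12 germline genes that Mga-containing complexes are known to silence, 9 were in the table, and of these Tdrkh alone was high enough to test (0.51, SE 0.15, edgeR adjusted p = 0.0342), lost without any 1 library other than THCaP replicate 3 (0.0628 to 0.115). The other 8 stayed near 0, with Sycp3 at 15 counts over the THCaP libraries and 38 over the TH libraries. Without THCaP replicate 1, 2 or 3 or TH replicate 1, 2 germline genes were tested. Without TH replicate 1 the gene other than Tdrkh was called lower, against the direction of Tdrkh.

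Of 20 genes that act on the stability of Myc protein 5 rose and 0 fell, with a median of 0.05. The share called in either direction, 5 of 20, was close to the 23.6% of all tested genes. All 5 were called higher, where 11.6% of all tested genes were called higher and 12.0% lower. The 4 with the largest changes are also mitotic or cell cycle genes: Plk1 (0.50, SE 0.08), Aurka (0.48, SE 0.09), Skp2 (0.48, SE 0.11) and Cip2a (0.47, SE 0.12). Plk1 and Aurka kept their calls in all 15 settings. Skp2 lost its call without THCaP replicate 1 (0.0631) or TH replicate 2 or 3 (0.0628 each), and Cip2a without THCaP replicate 1 (0.0764) or TH replicate 3 (0.0669). Fbxw7, the ligase component that marks Myc for degradation, was not called (0.01, SE 0.09), nor were Huwe1 (0.15, SE 0.11) and Usp28 (−0.10, SE 0.09). The number called higher was 2, 4 and 6 without THCaP replicates 1, 2 and 3, and 5, 3 and 2 without TH replicates 1, 2 and 3. Protein was not measured.

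The genes whose profile over the 6 libraries was nearest to that of Myc, by the root mean square difference of centred log2 CPM over 8747 genes at a mean CPM of 10 or more, were Padi2 (0.0971), Tnfrsf9 (0.14), Usp35 (0.155), Ccl4 (0.167) and Hyal3 (0.169). Padi2, a protein-citrullinating enzyme gene, had 8.33, 6.22 and 13.7 CPM on THCaP, against 23.9, 21.0 and 21.4 CPM on TH. Tnfrsf9, the co-stimulatory receptor 4-1BB, had 77.8, 54.4 and 93.5 CPM on THCaP, against 200.3, 174 and 187 CPM on TH. As with Myc, THCaP replicate 2 was lowest and TH replicate 1 highest. This likeness follows from choosing genes by their profile, and so does that of Dusp4 to Mxd1 below. Nearest to Mxd1 were the MAP kinase phosphatase gene Dusp4 (0.0747), the caspase-8 regulator Cflar (0.0911) and Rasgef1b (0.109). Dusp4 had 93.0, 76.9 and 108 CPM on THCaP, against 178, 227 and 255 CPM on TH, with TH replicate 1 the lowest TH library as for Mxd1.

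Library totals ran from 28000099 to 30317108 counts, and libraries of a surface differed by more than sampling noise. The macrophage markers summed to 2643 to 2936 CPM on THCaP and 2447 to 2957 CPM on TH, with Csf1r, Cd14, Cd68, Itgam, Spi1, Lyz2 and Adgre1 all expressed. Mertk was near the limit at 6 to 16 counts per library. Lyz2 was the 1 macrophage marker called, higher on THCaP by 0.63 (log2, SE 0.16, edgeR adjusted p = 0.0223). Csf1r was also higher in every THCaP library (0.31, edgeR adjusted p = 0.0504), without a call. Cd14 (−0.35, edgeR adjusted p = 0.0501) and Cd68 (−0.23, edgeR adjusted p = 0.0643) were lower in every THCaP library, also without a call. Of 15 markers of fibroblasts, endothelium, lymphocytes, neutrophils and epithelium 12 were in the table and 11 had at least 1 count, with S100a8 at 0. They summed to 3.24 to 4.84 CPM on THCaP and 5.41 to 6.18 CPM on TH, most of it Pecam1, and their part in the results was not tested.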

How the data were processed

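Raw read counts per gene symbol of 6 libraries were deposited by the authors without normalization, with FPKM values that the authors computed from them. For all 11079 genes with at least 10 counts in every library, FPKM and counts gave the same whole gene length within 0.01 bases. The submitters' processing notes name HISAT2, HTSeq and fastp as tools and mm10 as build, without versions. Which annotation and strand setting served the counting was not stated, so overlapping genes cannot be told apart. Groups and replicate numbers came from the labels.

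The counts went into edgeR 4.0.16 under R 4.3.3 (filterByExpr with a minimum count of 10 and minimum total of 15, TMM, robust quasi-likelihood F test of THCaP against TH without covariates, Benjamini-Hochberg over all 11480 tested genes). The SE is the absolute log2 fold change over the square root of F. Relative profiles used log2 CPM with a prior count of 2. The fit was also run on simulated counts with the same spread between replicates in every gene and library. The libraries here spread unequally, so that run does not measure the error rate of the fit on these data. The members and the 12 gene lists, written from general knowledge, were chosen with earlier results of these data known. Up to 4 called genes a list with at least 5 CPM were named (where none was called, the 2 most abundant), plus the genes nearest to Myc and Mxd1. A list is described by its counts and median, with no test of its own. Alternatives were DESeq2 1.42.0, limma-voom (limma 3.58.1), RLE factors, library totals, no filter, 5 CPM in at least 3 libraries, a replicate block, limma on log2(FPKM + 1) and log2(FPKM + 0.1) at a mean FPKM of at least 1, and each library left out. Gene positions are from GENCODE vM21 (GRCm38, which mm10 denotes) and sequences from RefSeq (GRCm38.p6).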

Additional observations from a re-analysis of the deposited data

How the results depend on the processing

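Over all tested genes 1333 were called higher and 1376 lower, and 291 to 2145 higher and 465 to 2020 lower without 1 library. With library totals 1904 were higher and 1063 lower, the scaling that moved the balance of directions, and with log2(FPKM + 1) 1787 and 972. The log2 fold changes of the 9 network genes moved by less than 1 SD between replicates under every alternative, with Myc between −1.71 and −1.11, Mxd1 between −1.44 and −1.13, Max between −0.05 and 0.02 and Mxd4 between −0.25 and 0.17 without 1 library. The Myc share differed by −2.77 to −2.03 percentage points without 1 library, and by −1.30 on CPM.

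The labels do not say whether a shared replicate number pairs a THCaP library with a TH library. The deviations of same-numbered libraries from their group means correlated at −0.02, −0.0723 and 0.0598. Those of differently numbered libraries correlated at −0.0926 to 0.101. With 3 libraries a surface this comparison cannot tell whether the libraries were paired. With the replicate block 1424 genes were higher and 1457 lower. The block called 0 partners of Mga lower, 1 turnover gene lower, 1 nucleotide gene lower and 5 Myc-repressed genes lower, where the fit without it called 1, 0, 2 and 3.

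Without 1 library the lists ran as follows, higher then lower: ribosome biogenesis 0 to 29 and 0, nucleotide and polyamine synthesis 2 to 21 and 1 to 2, cell cycle 7 to 18 and 1, energy metabolism 0 to 10 and 0 to 3, Myc-repressed 1 to 2 and 1 to 6, Mlx-Mondo targets 0 and 1 to 3, coactivators 0 to 6 and 0 to 2, Sin3 corepressors 0 to 6 and 0 to 1, Mga partners 1 to 4 and 0 to 1, turnover 2 to 6 and 0 to 1, germline genes 0 to 1 and 0 to 1, other network factors 0 to 1 and 1.

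Under library totals ribosome biogenesis had 20 genes higher, energy metabolism 8, Sin3 corepressors 5, Myc-repressed 2 and other network factors 1, with 0 Mga partners and 1 nucleotide gene lower. Both FPKM alternatives gave 5 Sin3 corepressors, 2 Myc-repressed genes and 1 other network factor higher, and 0 Mga partners and 1 nucleotide gene lower. DESeq2 called 8 energy metabolism genes, 2 Myc-repressed genes and 1 other network factor higher, and 5 Myc-repressed genes, 2 energy metabolism genes, 1 turnover gene and 1 Sin3 corepressor lower. Limma-voom called 3 energy metabolism genes higher and 0 Mga partners lower. Without a filter 5 Myc-repressed genes and 1 turnover gene were lower, and with the 5 CPM filter 1 Sin3 corepressor was lower. In each case the cause was not tested.

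The rule named 47 genes outside the network, all called, most of them picked as the called genes with the largest changes of a list. Of these, 21 kept their call in all 15 alternatives, among them all 5 nearest to Myc and all 3 nearest to Mxd1. The count of 21 therefore does not measure how stable the lists are. In the fit of all 6 libraries Mycl, Mlxipl and all but 1 of the germline genes in the table had too few counts to test.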
